A study of Rattus norvegicus with 15 samples.

Results

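A group of 390 genes whose transcript levels stood higher at each later stage was examined in molar tooth germs of rat embryos. The genes were chosen by their measured levels, from 14185 genes in the table. Counts were divided by a size factor for each library, a scaling that puts libraries of different depth on 1 footing, and the resulting values are called normalized counts below. Of the 13981 genes with at least 1 count, 1212 had every E17 library above every E15 library, which is 8.67% of them. The mean rose at both steps, from E15 to E17 and from E17 to E18, in 955 of these, and 834 of those reached a mean of at least 100 normalized counts at E18. A mean at E18 of at least 2 times the mean at E15 was met by 426 genes. Of these, 36 appear in the gene tables of the study and were left out of the group, which gave the 390 members. The stage levels of the members are therefore a description of what was selected, and no difference between stages in these genes was tested as a finding.

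RNA sequencing was done on first molar germs of wild type DA/HanRj rats, with 5 libraries at each of 3 stages and 1 tooth in each library. The stages are called E15, E17 and E18, for which the labels give E15.5, E17.5 and E18, and no animal was treated. The labels name the lower first molar for E18 and the first molar for the other stages. E17 replicates 1 and 2 were both first molars of 1 embryo, so that they do not count as separate animals. Each stage had its own title code and the labels of E18 a protocol text of their own, so that stage and differences of handling that go with the code or the text cannot be told apart. How embryonic days were counted is stated only for E18, and the lengths of the intervals between stages were therefore not compared. Replicates are separate teeth, and p-values measure only the spread between these teeth.

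A molar begins as a thickening of the oral epithelium that grows as a bud into the mesenchyme below it. At the cap stage the epithelium folds around the dental papilla, and a signalling centre, the enamel knot, forms in the epithelium and secretes Hedgehog, Wnt, FGF and BMP proteins. At the bell stage the cusps are laid out, and the cells that will make enamel and dentin start to differentiate. A transcript in a whole germ can rise because more cells make it or because each cell makes more of it, and these cannot be told apart in bulk RNA.

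Totals ranged from 10993502 to 27571541 counts per library, and the deepest libraries were E18 replicate 1 (27571541 counts) and E15 replicate 1 (24109716 counts). A gene without a count could have had up to 3 counts, equal to 0.109 to 0.273 CPM over the 15 libraries. All 10 markers of tooth germ that were listed had a row, among them Msx1, Pax9, Barx1 and Dlx2, and 8 of them were at 581 normalized counts or more in every library. The other markers, Shh and Sp6, were low at E15. E18 replicate 3 stood apart over the whole table. Relative to the E15 mean, the central 90% of the 10188 genes with an E18 mean of at least 100 spanned -2.49 to 1.34 on the log2 scale in that tooth, against -0.48 to 1.03 in E18 replicate 1. Without this tooth the rule chose 372 genes, 348 of them members (89.2% of the members). Counts of calls that use E18 are given with and without it.

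The files pair no identifier of a member with a gene symbol. Identifiers could be given symbols only for genes in the study's tables, and these are the genes that were left out. At most 17.9% of the genes of any of 23 prepared lists of cell type markers and pathways could be joined, so that no list was counted over the members. The group is described here by its levels, its steps and its teeth, and beside it stand the 36 named genes of the study's tables that met the same conditions.

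The members were genes of low to moderate level at E15 that had more than doubled by E18. The median of the 390 stage means was 113 normalized counts at E15 (quartiles 56.2 and 302), 248 at E17 (132 and 617) and 356 at E18 (196 and 883). The median ratio of the E18 mean to the E15 mean was 2.90 (quartiles 2.35 and 4.201). Most members were near the lower limit of the rule: 282 lay between 2 and 4 times their E15 mean, 108 were at 4 times or more, 35 at 8 times or more and 12 at 16 times or more. At E15 the mean was at least 100 in 212 members and at least 1000 in 24, and it was under 10 in only 6. No member was without a count in all 5 E15 libraries, and 1 had at most 3 counts in each of them. The group thus consists mainly of transcripts that were already present at E15, with few that were near absent there.

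**Figure D1:**
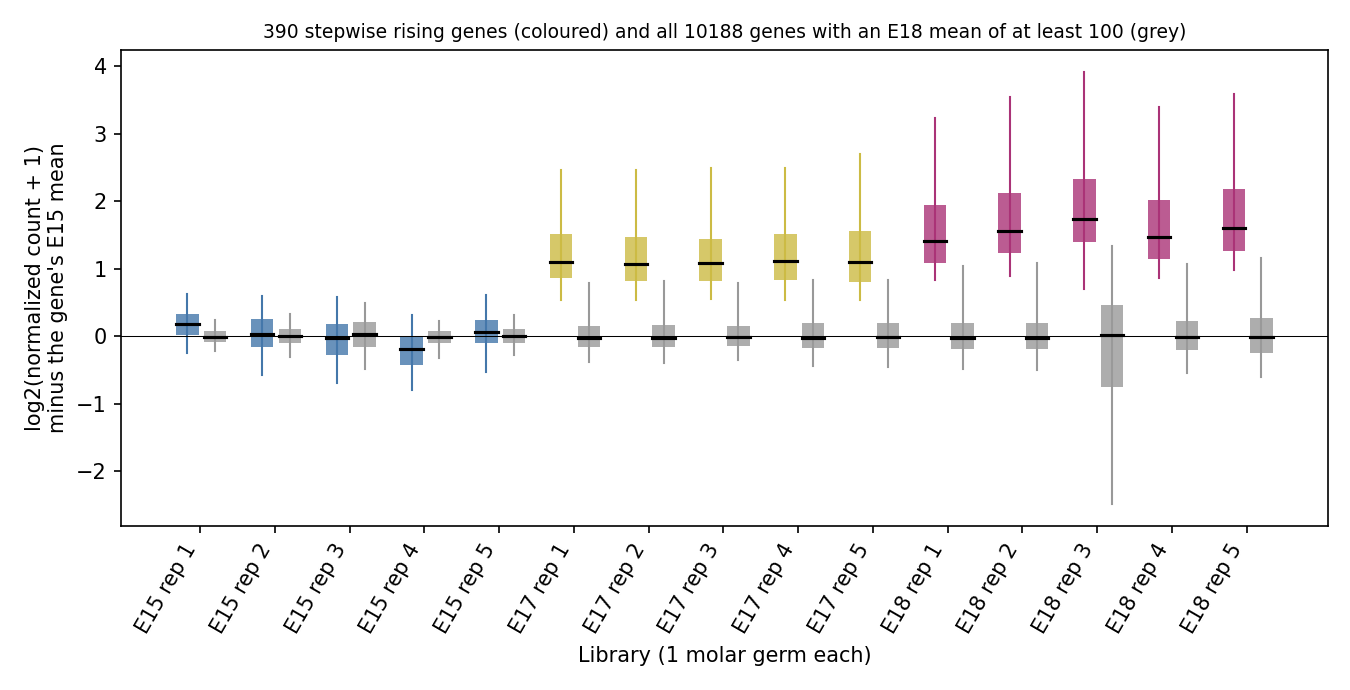
Log2(normalized count + 1) minus the gene's E15 mean in each of the 15 libraries, for the 390 members (coloured by stage) and for all genes with an E18 mean of at least 100 (grey), with boxes for the quartiles, thin lines for the central 90% and black bars for the medians. The median over members relative to the E15 mean lay at 1.08 to 1.11 in the 5 E17 teeth and at 1.41 to 1.74 in the 5 E18 teeth.

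The limits of the rule cut through a continuous range of values. The members just above the limit of 100 had E18 means of 100.3, 100.7 and 100.96 normalized counts, and the genes just below it, with all other conditions met, had 98.9, 97.7 and 97.4. At the limit of 2 times the E15 mean, the members just inside had ratios of 2.006, 2.007 and 2.009, and the genes just outside had 1.997, 1.997 and 1.995. The separation of E17 from E15 was also narrow in some members. The lowest E17 library exceeded the highest E15 library by a median of 0.47 on the log2 scale (quartiles 0.27 and 0.73), and by as little as 0.0035.

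Most of the difference between E15 and E18 was in place by E17. On the log2 scale of the stage means plus 1, the median member differed by 1.06 between E15 and E17 and by 0.49 between E17 and E18. Over all 10188 genes with an E18 mean of at least 100, the same medians were -0.03 and -0.01. The scaling holds medians over all genes close to no change and the members were chosen to rise, so that nothing is read from this contrast. The share of the log2 difference reached by E17 had a median of 68.0% over the members (quartiles 60.3% and 76.5%) and ranged from 35.6% to 99.0%. It was 80% or more in 77 members, between 50% and 80% in 285 and under 50% in 28. The E17 mean was at least 2 times the E15 mean in 225 members, for which no share over all genes was taken. The E18 mean was at least 2 times the E17 mean in 42 members, or 10.8%, beside 0.815% of all genes with an E18 mean of at least 100. Both counts rest on values that the rule used, and nothing is read from them. In 22 members the E18 mean was less than 1.1 times the E17 mean. The rule demanded that E17 and E15 not overlap, but between E17 and E18 directly it demanded only an order of the means. Its limits on the E18 mean, at least 100 and at least 2 times the E15 mean, also constrained the second step. Part of the asymmetry between the steps was therefore fixed by the choice of genes. The labelled days, E15.5, E17.5 and E18, are also unevenly spaced, so the sizes of the steps are not rates of change.

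**Figure D2:**
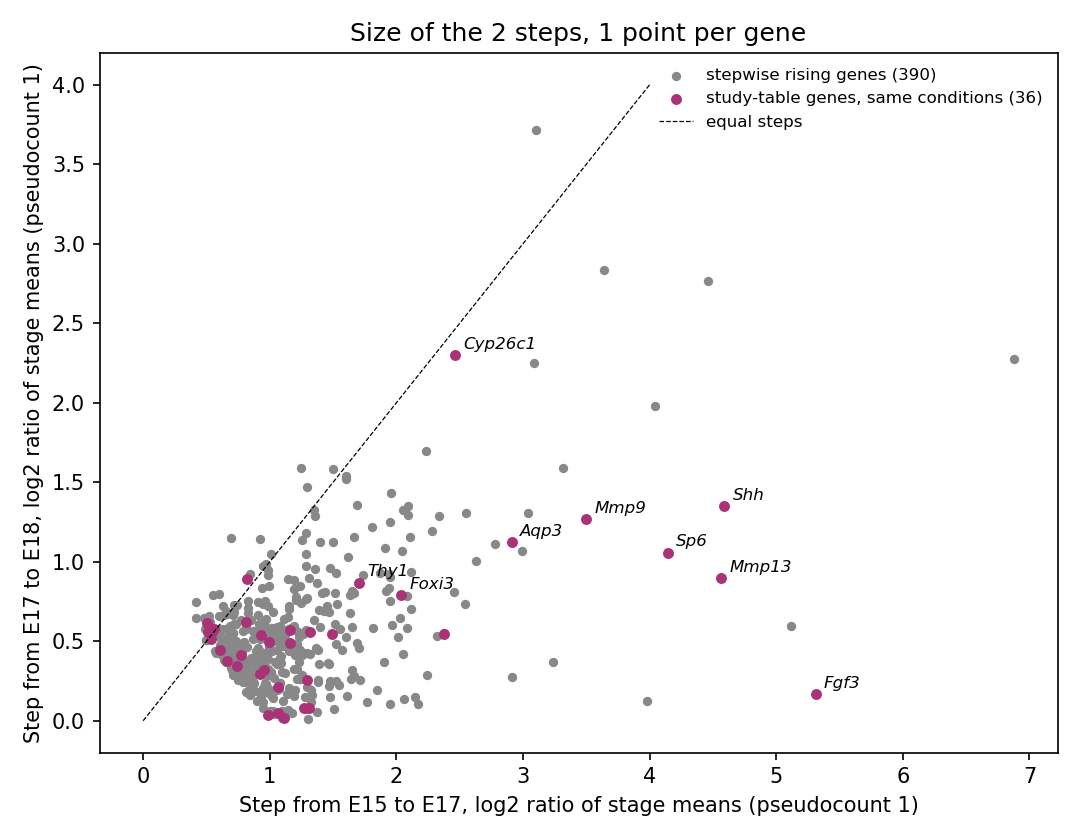
The log2 difference from E17 to E18 (vertical axis) against that from E15 to E17 (horizontal axis) for the 390 members and for the 36 study genes that met the same conditions. The medians of the members were 1.06 on the horizontal and 0.49 on the vertical axis, and most points lie on the side of the larger first step.

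In the fits over all genes (edgeR's quasi-likelihood test, Benjamini-Hochberg adjusted p under 0.05), 385 of the 388 members tested were called higher at E17 than at E15, beside 11.3% of all genes tested. Between E15 and E18, 387 of 390 were called higher, beside 14.2%, and 389 were without E18 replicate 3, beside 16.3%. The rule used these contrasts, and nothing is read from the counts. Between E17 and E18, 109 of 390 members were called higher, beside 1.91% of all genes, and here too the rule used the order of the means. The last count moved strongly with single libraries. It was 177 without E18 replicate 3, when 3.61% of all genes were called, and 145 without E18 replicate 1 (2.58% of all genes). It was 72 without E18 replicate 2, 59 without E18 replicate 5, and 67, 56, 55, 66 and 63 without E17 replicates 1 to 5 in that order, with 0.906% to 1.19% of all genes called in these fits. DESeq2 called 184 members and 3.31% of all genes, and joining both teeth of the shared E17 embryo gave 75 members and 1.24%.

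Between E17 and E18 directly, the rule set only the order of the means, while its limits on the E18 mean also constrained this step. How far the single teeth of these stages overlapped is described next. All 5 E18 libraries lay above the highest E17 library in 150 members, or 38.5%. The same held in 3.96% of all genes with a count, and in 9.22% of the 4980 genes with an E18 mean of at least 100 that was also above the E17 mean. As the rule used this contrast, nothing is read from these shares. In 118 members 4 E18 libraries lay above the highest E17 library, in 59 members 3 did, in 38 members 2, in 19 members 1, and in 6 members none. Against the E17 mean instead of the highest E17 library, 261 members had all 5 E18 teeth above it and 95 had 4. Leaving out 1 library at a time gave between 154 and 200 members without overlap. In most members, then, at least 1 E18 tooth lay within the E17 range or below it.

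Between teeth of a stage, the members had a wider median spread than genes at large, which were not matched for level. The median coefficient of variation between the 5 teeth was 20.9% at E15, 12.7% at E17 and 19.9% at E18 for the members, and 11.6%, 8.12% and 16.6% for all genes with an E18 mean of at least 100. In both sets E17 was the stage with the lowest spread, but its teeth included both molars of the shared embryo. The E18 values included replicate 3, with its wide spread over the whole table. The order of the stages is therefore not read as a trait of the stages. The coefficient at E18 exceeded 50% in 5 members and 100% in 1. In that 1 member the E18 teeth held 801, 22.1, 135, 2.01 and 8.27 normalized counts in replicates 1 to 5, beside an E17 mean of 177. Its E18 mean of 194 rested on replicate 1 alone, and the other E18 teeth were below the E17 mean.

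With 1 added to each mean, the largest log2 ratio of E18 to E15 was in ENSMUSG00000044041. Its E15 libraries held 54.7, 22.0, 12.9, 4.14 and 28.0 normalized counts in replicates 1 to 5. At E17 they held 3630, 2560, 2445, 2731 and 3533, and at E18 11738, 15419, 24453, 8268 and 12359. No values overlapped between stages, and E18 replicate 3 was the highest tooth. The stage means were 24.3 ± 19.2, 2980 ± 560 and 14448 ± 6143 (SD, n = 5). The log2 ratio of E18 to E15 was 9.16 with 1 added to each mean, of which 6.88 lay between E15 and E17, and leaving out each tooth in turn gave 8.88 to 9.67, the lowest without E18 replicate 3.

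ENSMUSG00000043681 came next by the same measure and had the lowest E15 mean of the members. It had 1 count in E15 replicate 2 and none in the other 4 E15 teeth. The E17 teeth held 30.6, 24.9, 9.98, 40.5 and 23.2 normalized counts and the E18 teeth 117, 191, 278, 141 and 180. The stages did not overlap, and the E18 teeth were again highest in replicate 3. Summed over libraries there was 1 count at E15 and 940 at E18. Scaled for depth this is a ratio of 914, with an exact 95% interval of 164 to 36149 that covers counting error only. The log2 ratio was 7.22 with 1 added to each mean and 4.23 with 10 added, so that its size and its rank depend on that choice. Its ratio of the stage means without any addition, 826, is larger than the 594 of ENSMUSG00000044041, but rests on 1 count at E15.

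**Figure D3:**
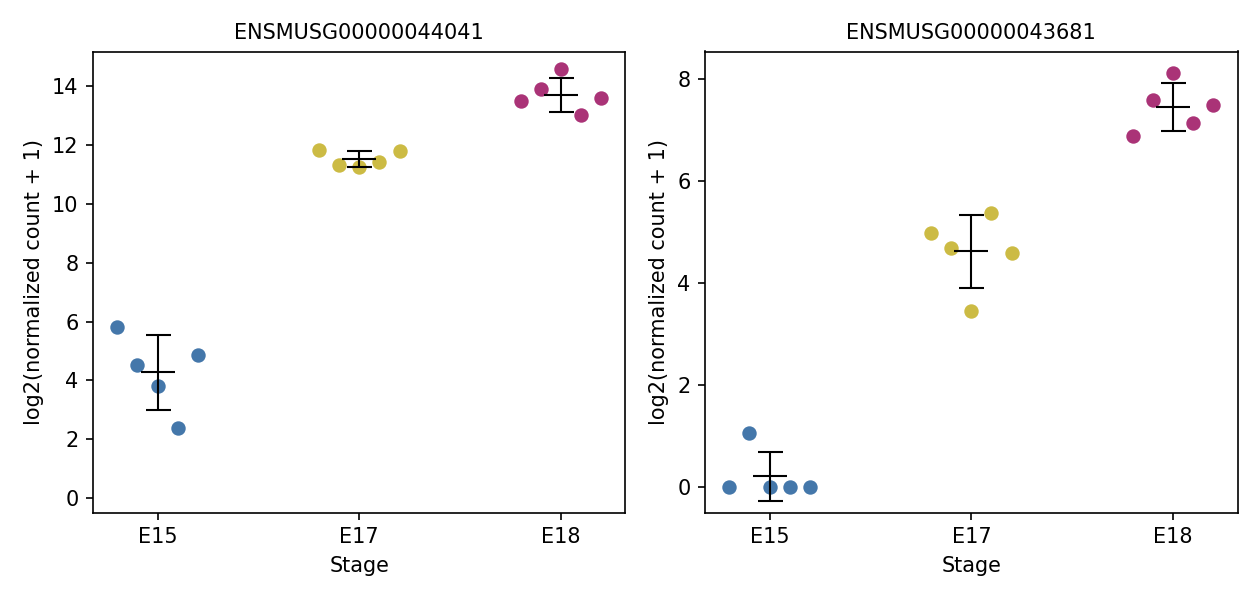
Normalized counts of ENSMUSG00000044041 and ENSMUSG00000043681 in each of the 15 teeth, as log2(normalized count + 1), with the mean and SD of these log2 values of a stage as a bar (n = 5). The values of the 3 stages do not overlap in either gene, and the E18 teeth reach 24453 and 278 normalized counts.

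The level of the group also varied between the teeth of a stage. For each tooth the group was chosen again from the other 14 libraries, and the median over the chosen genes of the tooth's log2 level minus the mean of the other teeth of its stage was taken. At E18 this median was -0.25 in replicate 1, 0.01 in replicate 2, 0.27 in replicate 3, -0.13 in replicate 4 and 0.07 in replicate 5. Replicate 3 thus stood above the other E18 teeth and replicate 1 below them, toward E17. In replicate 3 the quartiles over all genes, relative to the E15 mean, were -0.75 and 0.46, a wider range than this deviation. At E15 the medians were 0.24, 0.09, 0.02, -0.22 and 0.12 in replicates 1 to 5, so that replicate 1 stood toward E17 and replicate 4 away from it. The E17 teeth lay between -0.04 and 0.03. Over all 10142 genes with a mean of at least 100 the 15 medians were between -0.02 and 0.05, but the scaling centres these near 0, so that they are no comparison for the members.

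The converse group gave a second view of the same teeth. Before any limit of level or ratio, 897 genes had every E17 tooth below every E15 tooth, beside 1212 with every E17 tooth above. A mirrored rule, with falling means and the mirrored limits of level and ratio added, chose 93 genes. After these limits rising genes made up 80.7% of both groups together (78.8% to 81.4% over the alternative scalings and single libraries left out). For genes falling in this way and chosen without the tooth in question, the medians at E18 were 0.41, 0.23, -0.26, 0.14 and 0.03 in replicates 1 to 5. At E15 they were -0.16, -0.06, 0.23, 0.05 and -0.17. Rising and falling genes deviated in opposite directions in 4 of 5 E15 teeth, 2 of 5 E17 teeth and 3 of 5 E18 teeth. E15 replicate 1 and E18 replicate 1, both displaced toward E17 in the rising and in the falling genes, were also the deepest libraries of their stages. The part of depth in these positions was not tested. E18 replicate 3, displaced away from E17 in both groups, was the tooth that stood apart over the whole table.

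**Figure D4:**
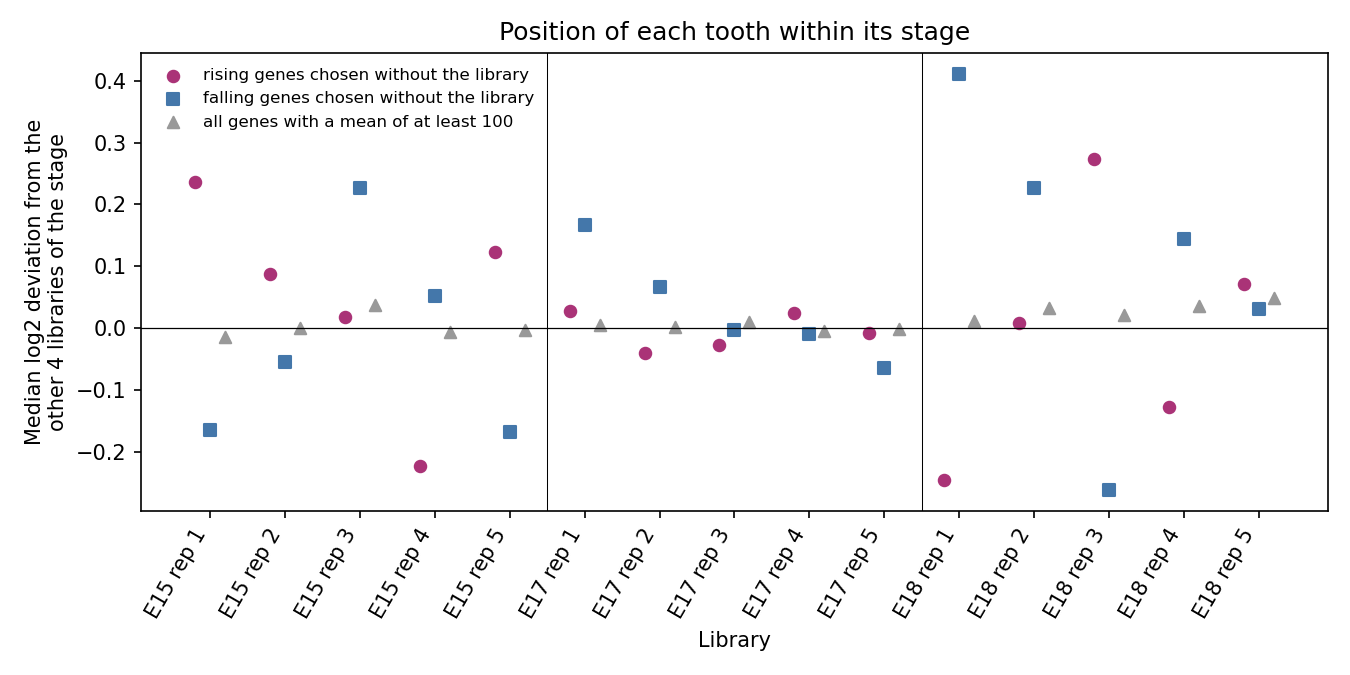
Median log2 deviation of each tooth from the other teeth of its stage, for rising genes and falling genes chosen without that tooth and for all genes. Rising genes range from -0.25 to 0.27 over the 15 teeth, and the medians of all genes are held near 0 by the scaling.

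Teeth were also ranked gene by gene. E18 replicate 3 had the highest E18 value in 57.4% of the members and the lowest in 14.1%, whereas over all genes it had the highest in 41.2% and the lowest in 41.8%. E18 replicate 1 had the lowest value in 41.0% of the members and in 24.5% of all genes. At E15, replicate 1 was highest in 33.1% of the members (10.1% of all genes) and replicate 4 was lowest in 41.8% (16.98%). These shares describe the selected genes and carry no test.

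Values of a tooth that had no part in the choice were then examined. Between 94.3% and 99.2% of the genes chosen without an E15 tooth lay below every E17 library in that tooth, and the same was true of 24.0% to 32.3% of all genes with an E18 mean of at least 100, the set meant by all genes here. Between 95.3% and 98.2% of the genes chosen without an E17 tooth lay above every E15 library in it, beside 20.2% to 24.1% of all genes. For E18 teeth, 82.0% to 91.5% of the genes chosen without the tooth lay above the E17 mean in it, beside 49.2% to 50.5% of all genes, and 63.7% to 80.2% lay above the highest E17 library, beside 21.9% to 41.4%. The share above the E17 mean was lowest in E18 replicate 3, the tooth with the wide spread. Size factors were kept from all 15 libraries, so that the tooth was not wholly outside the scaling. In each of the 15 teeth the share was thus higher among the chosen genes than among all genes. The chosen genes already met the rule in the other libraries, whereas all genes were not selected for it. A higher share was therefore largely set by the choice, and nothing is read from this comparison. The shares show only how often the order in the other teeth was met in the tooth left out. For the E17 embryo with both teeth in the data, leaving out either tooth kept its sibling in the choice. The E18 condition, a place above a mean, is looser than those of the other stages, so that the shares are not compared between stages.

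**Figure D5:**
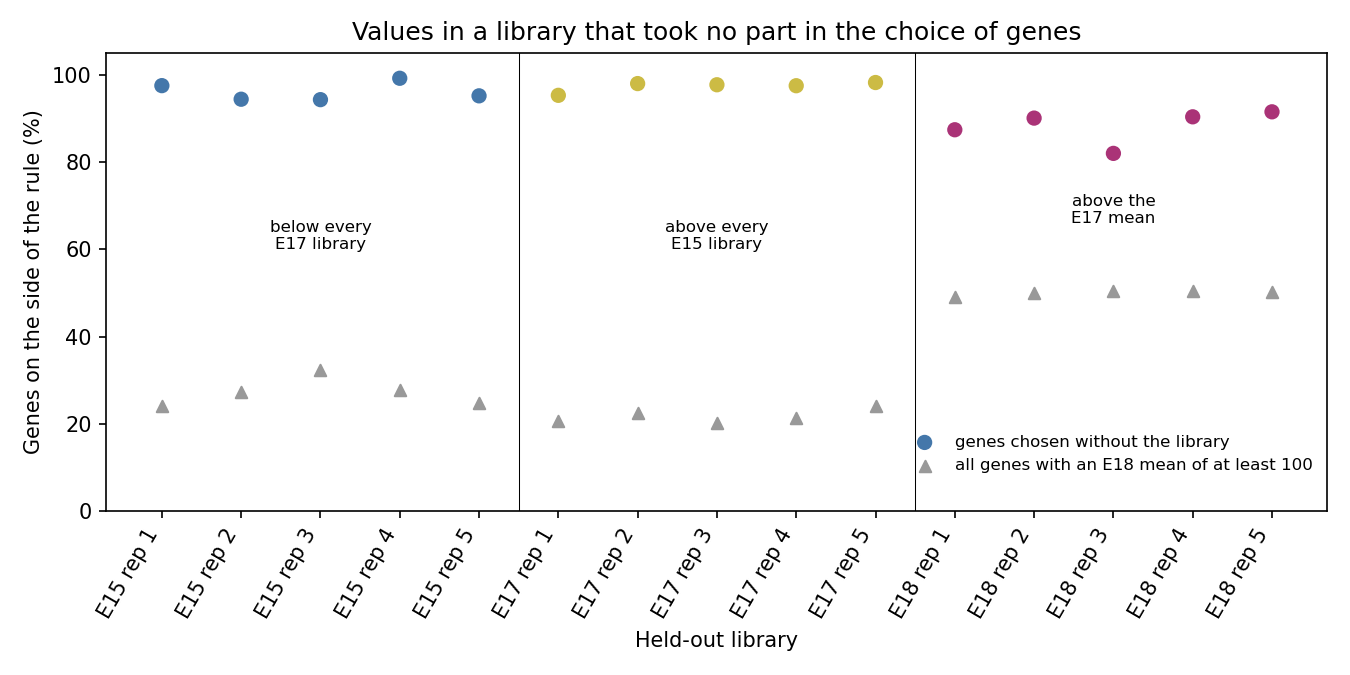
Share of genes, in percent, that held their place in a tooth left out of the choice, with colours for the stage, and the same share over all genes. E15 teeth reach 94.3% to 99.2%, E17 teeth 95.3% to 98.2% and E18 teeth 82.0% to 91.5%.

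Side of the jaw was not used by the rule and could be tested. With 9 left and 6 right teeth and stage in the model, edgeR's quasi-likelihood test called 0 of the 390 members between sides, beside 0% of the 13013 genes tested. At an unadjusted p under 0.05 there were 4 members, 1.03%, of which 3 were higher in left and 1 in right teeth, beside 0.914% of all genes. Both shares lay well under the fraction of 0.05 that p-values give where nothing differs, so that the absence of calls carries little weight. That count of 4 depended on single teeth, with 14 without E18 replicate 1, 11 without E15 replicate 1, 8 without E18 replicate 5, 7 without E17 replicate 2 and 1 without either E18 replicate 4 or E15 replicate 4. Within E17 alone it was 29, when 786 of 12901 genes were under 0.05, and 0 members were called after adjustment in any of these fits. DESeq2 also called none, with 145 genes at an unadjusted p under 0.05. The median log2 ratio of right to left was -0.05 over the members (quartiles -0.12 and 0.04) and 0.01 over all genes. No left or right difference in these genes was detectable with these teeth, which does not show that the sides were alike.

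The genes of the study's tables that met the same conditions put names beside the group. They were left out by the rule and are named here after their values were seen. Of the 356 table genes with a row, 36 met the conditions, or 10.1%, against 2.82% of the other 13829 genes. The 2 sets were not matched for level, and only 10188 of all 14185 genes reached the required E18 mean of 100. The shares were not tested. Their median log2 ratio of E18 to E15 was 1.46 beside 1.53 for the members, and the median share reached by E17 was 71.2% beside 68.0%. In 12 of the 36 every E18 tooth lay above every E17 tooth, beside 38.5% of the members. The same held in 3.96% of all genes with a count and 9.22% of those with an E18 mean of at least 100 and above the E17 mean. The 36 genes met the same conditions as the members, so nothing is read from these shares. The study sorts tooth genes by what their loss does in mouse mutants, and 3 of 15 progression genes (the tooth arrests) met the conditions, as did 7 of 28 shape genes, 4 of 22 tissue genes (defects of hard tissue), 15 of 89 dispensable genes and 0 of 10 genes that arrest the tooth only in double mutants.

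Hedgehog genes were among them. Shh, the ligand secreted by the enamel knot, was at 16.4 ± 19.8 normalized counts at E15, 418 ± 63.1 at E17 and 1067 ± 222 at E18 (SD, n = 5), with 0 to 46.6 in single E15 teeth, 366 to 495 in E17 teeth and 686 to 1254 in E18 teeth. Its log2 ratio of E18 to E15 was 5.94, and 5 of the 390 members had a larger one. Ptch1, the receptor that binds Shh and is itself induced by the signal, stood at 4094 ± 739, 8146 ± 573 and 11479 ± 1424. Hhip, a membrane protein that binds and limits Hedgehog ligands, went from 237 ± 41.2 to 554 ± 40.5. The ligand had by far the lowest level at E15 of these 3 genes and the largest ratio.

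Genes of the dental epithelium showed the step in different proportions. Sp6, a zinc finger factor of the enamel organ, was at 29.8 ± 6.65, 543 ± 44.8 and 1131 ± 265 normalized counts at the 3 stages. Foxi3, a forkhead factor of ectodermal organs, was at 135 ± 49.1, 556 ± 66.6 and 963 ± 94.98. Trp63, a master factor of stratified epithelia, had a smaller log2 ratio of 1.12. It had reached 45.0% of its difference by E17, while Sp6 had reached 79.7% of its own. Perp, a desmosomal component, stood at 877 ± 175 and 2757 ± 658 at E15 and E18, and Lama3, a chain of the laminin of basement membranes, had reached 94.1% of its difference by E17.

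Of the study's pathway lists, 5 of 61 Wnt genes, 4 of 31 Notch genes, 3 of 40 Hedgehog genes, 2 of 17 ectodysplasin genes, 1 of 62 FGF genes and 1 of 54 TGFB genes met the conditions. Edar, the ectodysplasin receptor, was at 74.3 ± 11.3, 132 ± 12.2 and 245 ± 44.2, and its adaptor Edaradd at 120 ± 17.9, 175 ± 17.8 and 250.1 ± 49.8. Both thus moved in steps of like size, with every E18 tooth above every E17 tooth in Edar. Among Wnt genes were the ligands Wnt10a (log2 ratio 1.87) and Wnt11 (1.096), and the antagonists Sostdc1 (1.39), which also binds BMPs, and Sfrp5 (1.02). By E17 these antagonists had reached 94.3% and 96.6% of their difference and the ligands 70.3% and 49.3%. Nkd2, an inhibitor of Wnt signalling inside the cell, had a log2 ratio of 1.06 and had reached 57.9%. Fgf3, an FGF ligand, was at 1.53 ± 2.13, 99.3 ± 33.2 and 112 ± 22.97, with no E18 tooth above the highest E17 tooth. Notch1, a receptor, had a log2 ratio of 1.08, its ligand Dll1 one of 1.14, and Lfng, which modifies Notch receptors, one of 1.28.

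Some matrix proteases and water channels stood among the dispensable genes that met the conditions. Of the study's tables, the protease Mmp14, the protease inhibitors Timp1 and Timp2 and the aquaporin Aqp9 had a row and did not meet them. Mmp13, a collagenase, was at 4.14 ± 2.996, 121 ± 162 and 226 ± 144, and Mmp9, a gelatinase made in quantity by osteoclasts, at 27.5 ± 12.5, 322 ± 200 and 776 ± 220. The spread of Mmp13 at E17 was larger than its mean there, so that its level differed greatly between teeth of that stage. The aquaporin Aqp3 went from 40.9 ± 22.5 to 686 ± 210, with a log2 ratio of 4.04, while Aqp1 and Aqp4 had ratios of 1.27 and 1.11. Cdkn1a, an inhibitor of cyclin-dependent kinases expressed in enamel knots, was at 130 ± 51.8, 368 ± 69.0 and 539 ± 155. The median deviations of the E18 teeth over the 36 genes were -0.26, 0.11, 0.16, 0.00 and 0.16 in replicates 1 to 5, so that replicate 1 was lowest here too, while replicates 3 and 5 were nearly level.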

How the data were processed

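Rat molar RNA-seq libraries were grouped by the stage given in the labels. The deposited table held estimated counts made by the authors with salmon, written as whole numbers under mouse gene identifiers for all 15 libraries. Per the labels, E18 reads went through FastQC 0.11.8, Trimmomatic 0.39 and Salmon 0.99.0, and the build is Rnor_6.0. The salmon version for E15 and E17, the transcript set and the strand setting are not given in the sources used here, so paralogs, overlapping and antisense genes are uncertain. A second deposited table (HTSeq, E15 and E17) was not used here, because its rat identifiers could not be joined to the mouse ones.

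Counts were divided by median-of-ratios size factors over the 15 libraries, and the rule was applied to these values. Log2 ratios used a pseudocount of 1. Stage and side contrasts were fitted with edgeR 4.0.16 (R 4.3.3; quasi-likelihood F test, TMM, filterByExpr) over all genes, and p-values adjusted by Benjamini-Hochberg (threshold 0.05). Rounding changed 0 values. DESeq2 1.42.0, other scalings, filters, limits of the rule and single libraries left out were alternatives. The filter kept 388 of 390 members in the contrast of E15 and E17 and all of them in the others.

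The members and all lists were chosen with earlier results of these data known. Members were to be named by the size of their change. As the files pair no identifier with a symbol, only the 2 with the largest log2 ratio of E18 to E15 are given. Some genes of the study's tables are not reported here. Floors of 3 counts and the exact interval cover counting error only, since PCR copies were not marked with molecular identifiers.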

Additional observations from a re-analysis of the deposited data

Results flagged for a closer look

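In 5 of 21 groups of 5 teeth 1 tooth lay far from the others. Chance alone flags about 1 in 20 such groups, or 1.05 of these 21. Some groups hold library totals, near-zero counts or shares over overlapping sets of genes, so that no excess over this rate is read. Library totals gave 3 of the 5 flagged groups: E15 replicate 1 with 24109716 counts, E17 replicate 3 with 16239849 and E18 replicate 1 with 27571541 were each far above the other totals of their stage. ENSMUSG00000043681 was flagged at E15, since replicate 2 alone had a count, equal to 1.098 normalized counts. The share of genes chosen without the tooth that lay above every E15 library was 95.3% in E17 replicate 1, against 97.5% to 98.2% in the other E17 teeth.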

How the results depend on the processing

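Membership depended most on the required ratio of E18 to E15, with 602 genes at 1.5 times and 108 at 4 times in place of 390. It was 395 with TMM factors, 409 with library totals, 414 with the shared E17 embryo joined, 452 and 288 with an E18 mean of at least 50 and 200, and 372 (without E18 replicate 3, 348 of the members kept) to 415 without 1 library. Calls higher at E18 than at E17 were the least stable. Over all genes they numbered 243, with 462 by DESeq2, 160 with the shared embryo joined and 116 to 463 without 1 library. Over the members they numbered 109, with 184 by DESeq2 and 55 to 177 without 1 library. The median share of genes that held their place in an E15 tooth left out was 95.2%, and 97.7% with the shared embryo joined. With a pseudocount of 10 the log2 ratio of ENSMUSG00000043681 was 4.23. Of 209 alternative values 186 stayed within 1.5 times the count, or within 1 SD between teeth. These values include the counts of calls between sides, which were 0 in every fit and could hardly move. Most other values are counts of genes, which have no direction, and no log2 ratio changed sign. The causes were not tested. No paired analysis was possible because, between stages, replicate numbers follow accession order and embryo numbers belong to different title codes. Between sides, a block for the E17 embryo with both teeth, added after seeing the data, gave 0 members called and 3 at an unadjusted p under 0.05.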
